A study of Mus musculus with 19 samples.

Results

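Mouse neuroblastomas driven by mutant FGFR1 together with MYCN were compared with those driven by mutant FGFR1 alone and taken at 6 or 7 days. All 11 FGFR1;MYCN tumors, from 8 mice, and all 4 tumors labelled 6 or 7 days, T11, T12, T2 and T3 from 4 mice, entered the comparison, which made 15 of the 19 tumors of the series. The 4 tumors of 14-day-old mice carried the FGFR1 genotype alone and were left out of it. Every mouse carried 1 copy of R26.FSF.FGFR1-N546K and 1 copy of Th-IRES Cre. In this design Cre is made from the tyrosine hydroxylase (Th) locus, a gene of catecholamine-producing cells, and once it has removed a stop cassette, the CAG promoter at ROSA26 drives human FGFR1 carrying the N546K substitution. The FGFR1;MYCN mice carried in addition 1 copy of Th-MYCN, human MYCN under the Th promoter. The mice titled mouse15, mouse17, mouse18, mouse2138 and mouse2149 gave 1 tumor each, and mouse23, mouse36 and mouse84 each gave a tumor titled kidney, listed at the adrenal gland, and a pelvic tumor. By the study's sample list the FGFR1;MYCN mice were older at collection than either FGFR1 group, so genotype and age cannot be told apart in this comparison.

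Neuroblastoma is a tumor of the developing sympathetic nervous system, whose cells make noradrenaline and pack it, with neuropeptides, into secretory vesicles. MYCN is a transcription factor of the MYC family that pairs with MAX on E-box sequences and is known for driving genes of ribosome and nucleotide production. FGFR1 is a receptor tyrosine kinase that signals through ERK, which induces its own feedback inhibitors of the Sprouty, Spred and Dusp families. The comparison asks which genes differed between tumors with and without the MYCN transgene when all carried activated FGFR1.

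The total estimated count was 40010738 to 75882643 per FGFR1;MYCN tumor (median 51708515) and 63929117 to 73765047 per 6-7-day tumor (median 66962673), a difference with a two-sided exact permutation p of 0.0227. Libraries stood apart in each group: the mean absolute deviation from the other tumors of the group, over genes, was 1.01 on the log2 scale for mouse2149, 0.867 for the pelvic tumor of mouse23 and 0.772 for T2, against 0.361 to 0.554 for the other 12 tumors. Liver markers, given as the mean of the list in log2 CPM (counts scaled to the size of each library), were 11.67 in mouse2149, 11.66 in T2, 9.90 in T11 and 4.30 in T3, against -0.09 in T12 and at most 1.99 in the other FGFR1;MYCN tumors. Exocrine pancreas markers were 12.70 in mouse2149 and 4.83 in mouse2138, and skeletal muscle markers 6.20 in T2, 3.45 in T11 and 3.05 in mouse18. Markers of sympathoadrenal cells were high in every tumor, with a mean level of 7.34 to 8.54 log2 CPM in the FGFR1;MYCN tumors and 7.60 to 7.81 in the 6-7-day tumors. Each tumor entered as a sample, so tumors of 1 mouse counted separately; with counts summed per mouse, 5946 genes passed in place of the 5718 given next.

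Of 18972 genes tested, 5718 (30.1%) passed an adjusted p of 0.05 in edgeR's quasi-likelihood test, 2535 (13.4%) higher and 3183 (16.8%) lower in the FGFR1;MYCN tumors. The larger changes were mostly decreases, since 2527 of the 3351 genes past the threshold with a log2 fold change above 1 in size were lower. All 11 FGFR1;MYCN tumors lay above all 4 others for 1238 genes (6.53%) and below all 4 for 1799 (9.48%). Every count of list members given below is to be read beside these shares of all genes. The number of higher genes changed with the tumor left out. Of the 6-7-day tumors, of which there were only 4, it was 1472 without T11, 1557 without T12, 1431 without T3 and 1984 without T2. Without any one FGFR1;MYCN tumor other than mouse23 pelvis, mouse2138 and mouse2149 it was 1913 to 2019. In the latter fits, and without T11, T12 or T3, the scaling of libraries took mouse2138 in place of mouse36 pelvis as its reference. The part of that switch in these counts, and in calls given below as lost, was not tested. Without the 3 libraries that stood apart, 3719 genes were higher and 4236 lower. Groups in which most members tested were higher were vesicle proteins, neuronal and cholinergic genes, ribosome biogenesis factors, aminoacyl-tRNA synthetases, chaperonins and purine synthesis genes. Among neuropeptides 9 of 18 were higher. Groups mostly lower were matrix, mesenchymal, antigen presentation, interferon-response and Notch genes, and markers of fibroblast, endothelial, glial, blood and fat cells. Skeletal muscle markers were lower for 5 of 9 genes tested, but for only 1 without T2.

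**Figure D1:**
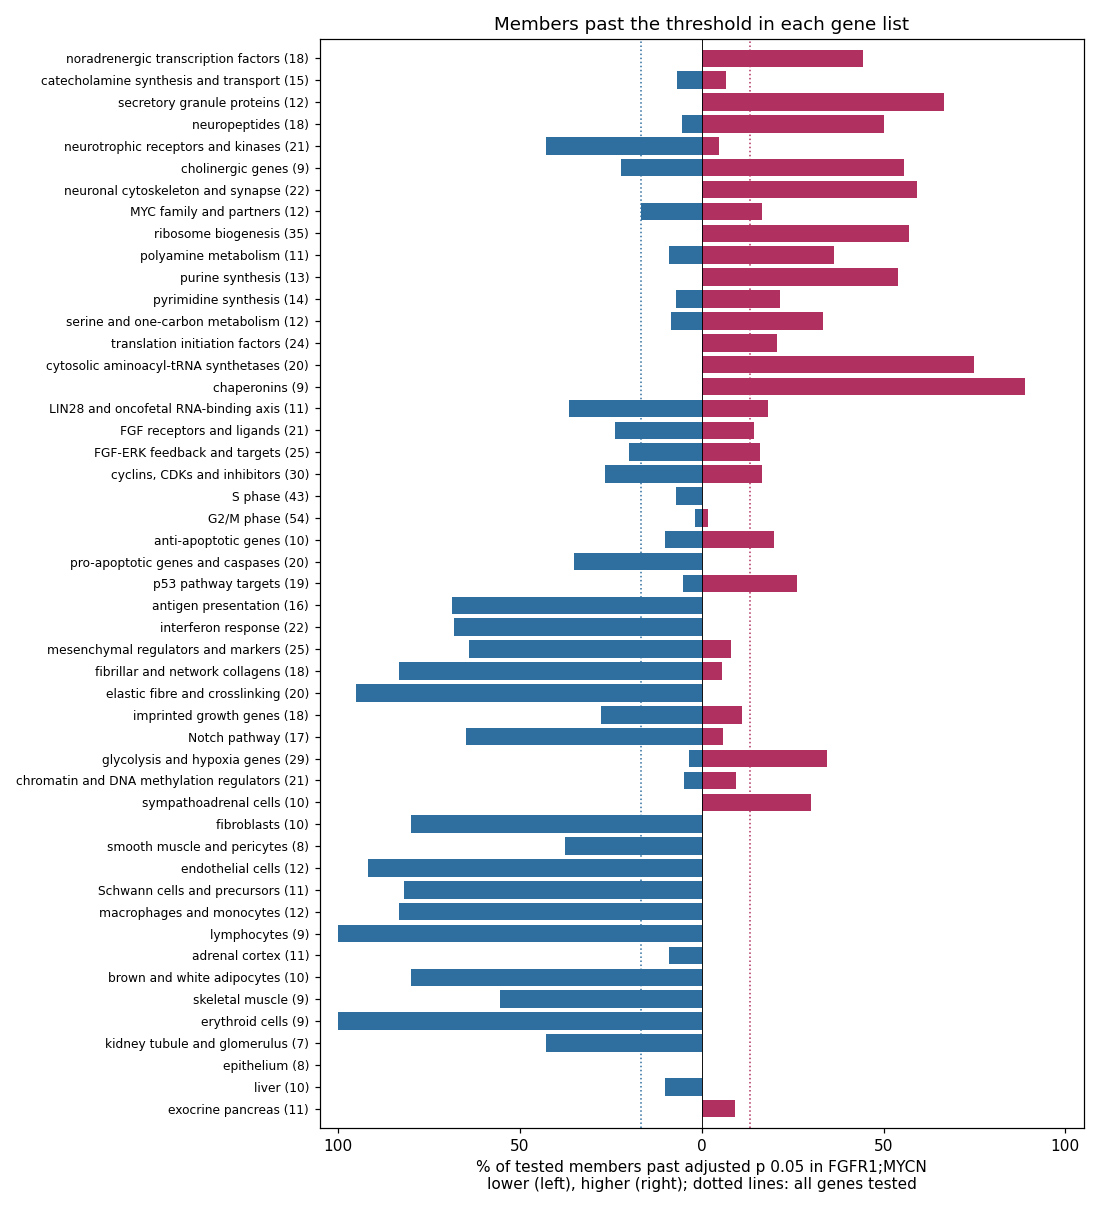
The share of tested members of each gene list, with the number tested in brackets, that passed an adjusted p of 0.05, drawn to the left where the gene was lower and to the right where it was higher in FGFR1;MYCN tumors. Dotted lines mark the shares over all genes tested, 16.8% lower and 13.4% higher; erythroid and lymphocyte lists reach the left edge, and chaperonins, tRNA synthetases and secretory granule proteins stand farthest to the right.

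The mouse counterparts of both transgenes were examined first. Mouse Mycn (chromosome 12, 12936093 to 12941914, GRCm38) was between 6.36 and 7.17 log2 CPM (median 6.66) in the FGFR1;MYCN tumors and 5.70, 5.62, 6.15 and 5.56 in T11, T12, T2 and T3. The groups did not overlap, and the mean difference was 0.95 (6.71 ± 0.29, SD, n = 11, against 5.76 ± 0.27, n = 4; two-sided exact permutation p = 0.000733, the smallest these 1365 splits can give, adjusted over 2 genes 0.00147). These splits count tumors of 1 mouse separately. On means per mouse the Mycn difference was 0.98, with an exact permutation p, adjusted over 2 genes, of 0.00404. Mouse Fgfr1 was between 6.41 and 7.32 log2 CPM (median 6.65) in the FGFR1;MYCN tumors and 6.78, 7.25, 6.89 and 7.08 in T11, T12, T2 and T3, a difference of -0.30 (6.70 ± 0.28 against 6.996 ± 0.21, exact permutation p = 0.0762, adjusted 0.0762). That difference had an adjusted p of 0.0404 on means per mouse and was 0.0139 on the variance-stabilized values. The reads were assigned to mouse and human transcripts together and only mouse genes were used here, so the values do not measure the transgenes, whose human transcripts can share reads with the mouse genes.

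Among other genes of the MYC network, Myc was lower at between 1.42 and 3.10 log2 CPM (median 2.37) in FGFR1;MYCN tumors, against 3.47, 3.71, 4.33 and 3.92 in T11, T12, T2 and T3. All FGFR1;MYCN tumors lay below the others (log2 fold change -1.47 ± 0.23, adjusted p = 2.11e-04). Mxd4, which competes with MYC proteins for MAX, was also lower (log2 fold change -0.72 ± 0.11, adjusted p = 1.31e-04). Max was 0.38 higher on the log2 scale (adjusted p = 0.0152), a call lost without any one of T11, T12, T3, mouse17, mouse23 kidney and mouse36 pelvis (adjusted p 0.0549 to 0.115). In all, 2 of the 12 members tested were higher and 2 lower, near the 13.4% and 16.8% of all genes. From 1 to 4 members were higher on leaving out 1 tumor, moving by more than 1.5 times also without mouse23 pelvis.

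The largest rises among the genes named by size were those of the neuropeptide genes Tac1, Vip, Grp and Adcyap1. Of 18 neuropeptide genes tested, of 20 listed, 9 were higher and 1 lower, against 13.4% and 16.8% of all genes, and the median log2 fold change was 0.73 against 0.08 over all genes tested. Tac1 (chromosome 6, 7554879 to 7565834), the substance P precursor, ranged over 0.35 to 7.20 log2 CPM (median 4.84) in FGFR1;MYCN tumors and was -0.93, -0.73, -0.70 and -1.13 in T11, T12, T2 and T3. It was low in all 6-7-day tumors and varied widely among the FGFR1;MYCN tumors (log2 fold change 6.50 ± 1.10, adjusted p = 3.98e-04). Vip (chromosome 10, 5639218 to 5647617), which encodes vasoactive intestinal peptide, was between 6.20 and 10.47 log2 CPM (median 8.99) in FGFR1;MYCN tumors and 4.22, 3.57, 3.16 and 3.88 in T11, T12, T2 and T3. The lowest FGFR1;MYCN tumor was above the highest of the others, and the fitted increase was 45.8-fold (log2 fold change 5.52 ± 0.69, adjusted p = 3.25e-05). Adcyap1, encoding the related peptide PACAP, was between 4.19 and 6.14 log2 CPM (median 5.18) against 1.53, 1.39, 1.05 and 1.33 in T11, T12, T2 and T3. Its rise varied less between tumors (log2 fold change 3.85 ± 0.37, adjusted p = 3.75e-06). Grp, the gastrin-releasing peptide gene, was between 4.50 and 8.43 log2 CPM (median 5.20) against 2.47, 2.27, 2.44 and 2.31 in T11, T12, T2 and T3 (log2 fold change 4.03 ± 0.82, adjusted p = 0.00151).

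Cartpt, encoding the CART prepropeptide, rose from a mean of 8.14 to 10.44 log2 CPM (log2 fold change 2.39 ± 0.42, adjusted p = 5.47e-04). Uts2b (3.26 ± 0.67), Nmu (4.85 ± 1.23) and Crh (1.97 ± 0.54) also rose on the log2 scale but stayed low, with a mean below 0 log2 CPM for Uts2b and Crh. Galanin, encoded by Gal, rose by 0.97 (adjusted p = 0.0145). The call of Gal was lost without T12 or T3 (adjusted p 0.0624 to 0.0657) and that of Crh without T11 or T12 (adjusted p 0.05 to 0.0515). The natriuretic peptide gene Nppc fell (log2 fold change -1.78 ± 0.47, adjusted p = 0.00954). The sympathetic cotransmitter Npy had a log2 fold change of 0.36 ± 0.50 (adjusted p = 0.628). The number of higher peptide genes was 7 to 9 on leaving out any one tumor. Against the 6-day tumors alone it was 5, and against the 7-day tumors alone 6.

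**Figure D2:**
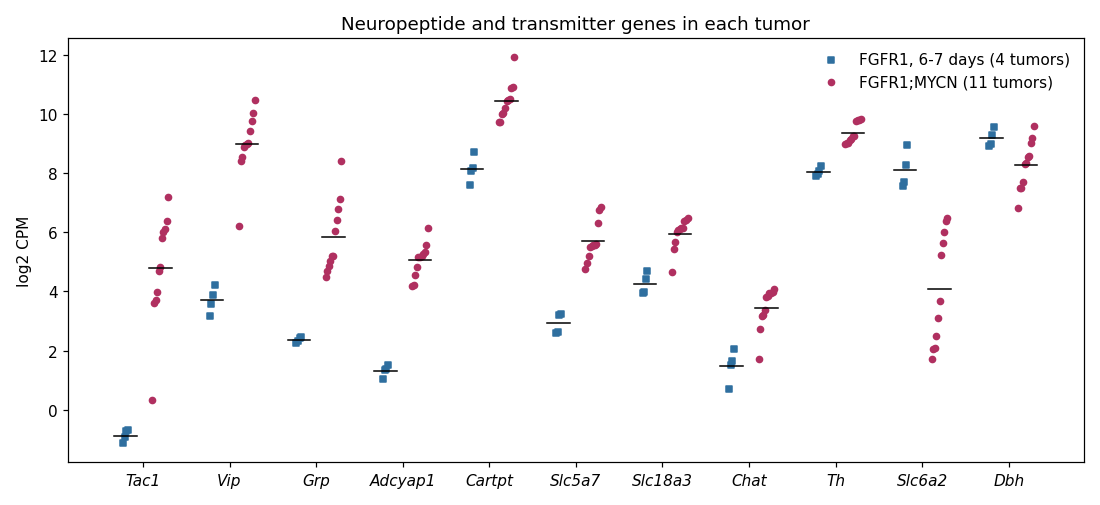
Level in log2 CPM of transmitter and neuropeptide genes in each of the 11 FGFR1;MYCN and the 4 6-7-day FGFR1 tumors, 1 point per tumor, with the group means. Vip, Tac1 and Adcyap1 do not overlap between groups and are higher in FGFR1;MYCN, while Slc6a2 lies below all 6-7-day tumors and spreads from 1.72 to 6.48 within the FGFR1;MYCN group.

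The promoter of Cartpt is shown because it was the only one among the neuropeptide genes that passed the threshold with a cAMP response element in it, and it is printed with that element, TGACGTCA, in capitals. The 250 bases upstream of its start, read on the gene's minus strand from RefSeq (GRCm38.p6, chr13:99900684-99900933), are:
Cartpt: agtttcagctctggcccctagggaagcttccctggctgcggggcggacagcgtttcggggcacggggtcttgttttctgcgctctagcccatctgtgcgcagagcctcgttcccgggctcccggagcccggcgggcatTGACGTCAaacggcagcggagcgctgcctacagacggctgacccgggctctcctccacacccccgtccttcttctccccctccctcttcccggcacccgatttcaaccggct
The 8 letters, which read the same on both strands, were in the window of 2 of 15 neuropeptide genes with a window, of 2.61% of all 13564 genes tested with one, of 3.76% of genes that were higher and of 1.15% of genes that were lower.

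Genes of the vesicles that process and store peptides were higher as well. Of 12 secretory granule genes tested, 8 were higher and none lower, with a median of 0.88, and 7 to 11 were higher on leaving out any one tumor. Pcsk2, a prohormone convertase that cuts peptide precursors, was between 4.89 and 6.39 log2 CPM (median 5.54) in FGFR1;MYCN tumors against 3.85, 4.15, 3.87 and 3.72 in T11, T12, T2 and T3 (log2 fold change 1.70 ± 0.25, adjusted p = 1.10e-04). Its partner Pcsk1 (log2 fold change 1.88 ± 0.42, adjusted p = 0.00325), the granule protein Vgf (log2 fold change 1.64 ± 0.31, adjusted p = 0.00102) and secretogranin 2, Scg2 (log2 fold change 1.11 ± 0.21, adjusted p = 8.38e-04), also rose. Chga, the chromogranin A gene used as a marker of these vesicles, had a log2 fold change of 0.50 ± 0.26 (adjusted p = 0.159).

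Cholinergic genes, which sympathetic neurons use in place of noradrenaline when they supply sweat glands, rose in part. Of 9 tested, 5 were higher and 2 lower. Slc5a7, the choline transporter, was between 4.75 and 6.87 log2 CPM (median 5.56) in FGFR1;MYCN tumors against 2.60, 3.23, 3.20 and 2.64 in T11, T12, T2 and T3, with no overlap (log2 fold change 2.90 ± 0.42, adjusted p = 1.12e-04). Chat, which makes acetylcholine, was between 1.72 and 4.09 log2 CPM (median 3.81) against 1.53, 2.05, 0.69 and 1.65 in T11, T12, T2 and T3 (log2 fold change 2.02 ± 0.40, adjusted p = 0.00126). Slc18a3, the vesicular acetylcholine transporter, which lies within the first intron of Chat in mammals, rose by 1.74 ± 0.29 (adjusted p = 3.06e-04). Receptor subunits went both ways: Chrna7 (log2 fold change 1.03 ± 0.17, adjusted p = 2.88e-04) and Chrnb2 (log2 fold change 0.68 ± 0.15, adjusted p = 0.00359) rose, and Chrna5 (log2 fold change -1.12 ± 0.26, adjusted p = 0.00393) fell. Chrnb4 also fell (log2 fold change -1.49 ± 0.51, adjusted p = 0.0379), a call lost without mouse2138, T11, T12 or T2 (adjusted p 0.0578 to 0.0983), which left 1 gene lower, and 3 were lower without mouse2149.

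Only 1 of 15 catecholamine genes was higher and only 1 lower, against 13.4% and 16.8% of all genes. Th, the rate-limiting enzyme of catecholamine synthesis and the gene whose promoter drives both Cre and MYCN, was between 8.98 and 9.82 log2 CPM (median 9.24) in FGFR1;MYCN tumors and 7.97, 8.08, 8.23 and 7.90 in T11, T12, T2 and T3 (log2 fold change 1.35 ± 0.22, adjusted p = 2.78e-04). Slc6a2 (chromosome 8, 92960079 to 93001667), which takes noradrenaline back into the cell, was between 1.72 and 6.48 log2 CPM (median 3.69) in FGFR1;MYCN tumors and 8.27, 8.95, 7.56 and 7.71 in T11, T12, T2 and T3. It was thus 9.1-fold lower in the fit (log2 fold change -3.19 ± 0.78, adjusted p = 0.00561), and the FGFR1;MYCN tumors differed widely among themselves. In the mice that gave a pair of tumors it was 6.38, 5.23 and 6.03 log2 CPM in the adrenal tumors of mice 23, 36 and 84 and 2.07, 2.10 and 1.72 in their pelvic tumors. Dbh (-0.73 ± 0.39, adjusted p = 0.173) and Ddc (-0.53 ± 0.29, adjusted p = 0.181), the other enzymes of noradrenaline synthesis, did not pass, although Dbh did without mouse15 (adjusted p 0.0478). Without mouse2149, 3 genes of the list were higher and 2 lower; without mouse23 pelvis 2 were higher, and without mouse15 2 were lower.

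The transcription factors that hold the noradrenergic state were higher in 8 of 18 cases and lower in none, with a median of 0.56. Sox11, a factor of immature sympathetic cells, was between 6.66 and 7.88 log2 CPM (median 7.18) in FGFR1;MYCN tumors against 6.49, 6.62, 5.59 and 6.32 in T11, T12, T2 and T3 (log2 fold change 0.98 ± 0.26, adjusted p = 0.00944). It was the only member whose groups did not overlap. Isl1 rose by 0.77 ± 0.20 (adjusted p = 0.0086). Phox2a (0.51 ± 0.23, adjusted p = 0.112) and Hand2 (0.54 ± 0.21, adjusted p = 0.0704) did not pass, but did without mouse2149 (adjusted p 0.0436 and 0.00688). The count of higher members ranged from 2 to 11 on leaving out 1 tumor and moved by more than 1.5 times without mouse15, 17, 18, either tumor of mouse84, or any of the 6-7-day tumors. It was 0 against the 6-day tumors alone and 1 against the 7-day tumors alone.

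Genes of the neuronal cytoskeleton and synapse were higher in 13 of 22 cases and lower in none, with a median of 0.77. Rbfox3, which encodes the neuronal nuclear protein NeuN, was between 4.57 and 5.54 log2 CPM (median 5.18) in FGFR1;MYCN tumors against 2.47, 2.89, 3.23 and 2.28 in T11, T12, T2 and T3 (log2 fold change 2.36 ± 0.24, adjusted p = 7.15e-06). The heavy and light neurofilament genes Nefh (log2 fold change 2.13 ± 0.27, adjusted p = 4.30e-05) and Nefl (log2 fold change 1.49 ± 0.30, adjusted p = 0.00136) rose without overlap. Synaptotagmin 4, Syt4, rose by 1.69 ± 0.40 (adjusted p = 0.00461). The count was 8 without T3 and 9 to 15 without any other tumor. Over the same tumors the 10 sympathoadrenal markers had a median of 0.52, with 3 higher, and the 10 fibroblast markers a median of -2.66, with 8 lower; their part in the rise of the noradrenergic and neuronal genes was not tested. Other genes named by the size of their rise were Rasgrf1, an exchange factor for Ras (log2 fold change 3.44 ± 0.36, adjusted p = 7.49e-06), Syt6 (log2 fold change 3.22 ± 0.49, adjusted p = 1.55e-04), the small GTPase gene Rem2 (log2 fold change 3.11 ± 0.43, adjusted p = 7.46e-05), the potassium channel gene Kcnn1 (log2 fold change 3.07 ± 0.34, adjusted p = 1.22e-05) and Zfp804a (log2 fold change 2.90 ± 0.36, adjusted p = 3.25e-05).

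Neurotrophic receptors went the other way. Of 21 receptor and kinase genes tested, 9 were lower and 1 higher, with a median of -0.91. Erbb2, a receptor tyrosine kinase gene of the EGF receptor family, was between 0.76 and 2.90 log2 CPM (median 1.96) in FGFR1;MYCN tumors against 4.17, 4.77, 4.204 and 4.37 in T11, T12, T2 and T3 (log2 fold change -2.30 ± 0.35, adjusted p = 1.57e-04), although its exons overlap those of Mien1 on the other strand. The neurotrophin receptor genes Ngfr (log2 fold change -1.37 ± 0.23, adjusted p = 3.94e-04) and Ntrk3 (log2 fold change -1.59 ± 0.49, adjusted p = 0.0219) were lower as well, the latter not without T12 or T3 (adjusted p 0.0542 to 0.0676). Erbb3 (-2.08 ± 0.48) and Pdgfra (-2.53 ± 0.49) fell on the log2 scale and stand in the lists of glial and fibroblast markers. In bulk tissue fewer cells of a type and less RNA per cell cannot be told apart. Kit fell by 1.57 ± 0.36 (adjusted p = 0.00401). Ret, the receptor of the GDNF family, was between 8.71 and 9.73 log2 CPM (median 9.31) against 8.26, 8.47, 8.83 and 8.21 in T11, T12, T2 and T3 and was higher in the fit (log2 fold change 0.80 ± 0.23, adjusted p = 0.0165), a call lost without T11, T12 or T3 (adjusted p 0.063 to 0.0931). Alk, mutated in part of human neuroblastomas, was between 2.96 and 5.87 log2 CPM (median 4.79) against 3.44, 4.05, 4.09 and 3.62 in T11, T12, T2 and T3 and did not pass (log2 fold change 1.05 ± 0.43, adjusted p = 0.0788), although it did without mouse23 pelvis or mouse2149 (adjusted p 0.0169 to 0.0403). The number of higher members was 2 and 3 without these tumors and 0 without T11, T12 or T3.

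Of 35 ribosome biogenesis genes tested, 20 were higher and none lower, against 13.4% and 16.8% of all genes, with a median of 0.73. For 16 of them all FGFR1;MYCN tumors lay above the others, against 6.53% of all genes. Gnl3 (chromosome 14, 31012433 to 31019152), which encodes the nucleolar GTPase nucleostemin, was between 6.39 and 7.21 log2 CPM (median 6.81) in FGFR1;MYCN tumors against 5.19, 5.11, 5.17 and 5.44 in T11, T12, T2 and T3. The rise was 3.09-fold with little spread within either group (log2 fold change 1.63 ± 0.16, adjusted p = 3.75e-06), although exons of Gnl3 overlap those of Pbrm1 on the other strand. Nop56, a core protein of box C/D ribonucleoproteins, was between 7.29 and 8.64 log2 CPM (median 7.73) against 6.34, 6.35, 6.31 and 6.64 in T11, T12, T2 and T3 (log2 fold change 1.37 ± 0.22, adjusted p = 2.23e-04). Wdr12 (log2 fold change 1.24 ± 0.15, adjusted p = 2.32e-05), needed for the large subunit, and Nolc1 (log2 fold change 1.05 ± 0.15, adjusted p = 1.25e-04), a nucleolar phosphoprotein, also rose. From 14 to 26 members were higher on leaving out 1 tumor, 13 against the 6-day and 10 against the 7-day tumors alone.

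Among the higher members of that list, Nop2, an rRNA methyltransferase gene (log2 fold change 0.84 ± 0.15, adjusted p = 4.54e-04), alone had the E-box CACGTG, the sequence MYC and MAX bind, in the 250 bases upstream of its start. It was named for that after its values were seen. The windows of Nop2, of the spermine synthase gene Sms and of the mitochondrial chaperonin gene Hspd1, all higher in FGFR1;MYCN tumors, are shown from RefSeq (GRCm38.p6) in the direction of the gene with the E-box in capitals, at chr6:125131633-125131882 on the plus strand, chrX:157492288-157492537 on the minus strand and chr1:55088244-55088493 on the minus strand:
Nop2: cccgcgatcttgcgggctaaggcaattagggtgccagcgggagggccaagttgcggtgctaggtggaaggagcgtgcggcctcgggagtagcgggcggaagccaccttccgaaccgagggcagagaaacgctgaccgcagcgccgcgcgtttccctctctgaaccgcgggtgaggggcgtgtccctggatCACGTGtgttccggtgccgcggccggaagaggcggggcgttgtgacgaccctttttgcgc
Sms: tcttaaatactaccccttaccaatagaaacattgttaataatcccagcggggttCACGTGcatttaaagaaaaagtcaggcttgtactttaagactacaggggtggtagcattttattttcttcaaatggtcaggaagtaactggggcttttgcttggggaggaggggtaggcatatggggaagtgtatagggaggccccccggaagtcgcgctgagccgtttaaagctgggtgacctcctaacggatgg
Hspd1: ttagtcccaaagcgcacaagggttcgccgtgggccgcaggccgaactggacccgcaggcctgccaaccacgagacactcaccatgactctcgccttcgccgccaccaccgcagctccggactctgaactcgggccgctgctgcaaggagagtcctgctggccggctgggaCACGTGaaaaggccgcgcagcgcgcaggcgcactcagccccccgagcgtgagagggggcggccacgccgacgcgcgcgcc
The E-box, which reads the same on both strands, was in the windows of 1 of 29 ribosome biogenesis genes with a window, 3 of 12 tRNA synthetase genes, 3 of 12 purine genes, 1 of 8 chaperonin genes and 1 of 8 polyamine genes. Outside the ribosome biogenesis list, 4 of these holders were higher in FGFR1;MYCN tumors, and Sms and Hspd1 are shown because their rises were the largest of the 4. None of the purine genes with the E-box passed the threshold. Of genes with a window, 8.78% of all tested held it, as did 11.2% of those that were higher and 6.71% of those that were lower.

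Genes that supply translation rose in most but not all groups. Of 20 cytosolic aminoacyl-tRNA synthetase genes 15 were higher and none lower, against 13.4% and 16.8% of all genes, with a median of 0.66. For 11 of them all FGFR1;MYCN tumors lay above the others, against 6.53% of all genes. Gars, the glycyl-tRNA synthetase gene, was between 7.63 and 8.89 log2 CPM (median 8.02) in FGFR1;MYCN tumors against 7.09, 6.97, 7.38 and 7.03 in T11, T12, T2 and T3 (log2 fold change 1.005 ± 0.20, adjusted p = 0.00153), and Sars (1.01 ± 0.27), Yars (0.95 ± 0.19) and Nars (0.87 ± 0.19) rose by similar amounts on the log2 scale. The count was 10 to 16 on leaving out 1 tumor, 10 against 6-day and 4 against 7-day tumors alone. Of 9 chaperonin genes tested, of 10 listed, 8 were higher, with a median of 0.78. Cct8, a subunit of the cytosolic chaperonin, was between 8.31 and 9.19 log2 CPM (median 8.62) against 7.98, 7.71, 7.96 and 7.95 in T11, T12, T2 and T3 (log2 fold change 0.79 ± 0.17, adjusted p = 0.00285). The chaperonin count depended on single tumors, ranging from 1 to 8, and moved by more than 1.5 times without mouse17, mouse36 pelvis, T11, T12 or T3. Hspd1 (log2 fold change 0.88 ± 0.26, adjusted p = 0.0173), for example, was lost without T11, T12 or T3 (adjusted p 0.0596 to 0.107). Of 24 translation initiation factors, 5 were higher and none lower. Eif1a was the largest rise (log2 fold change 1.04 ± 0.24, adjusted p = 0.00364), and the count ranged from 1 to 10, moving by more than 1.5 times without mouse23 pelvis, mouse2149, T11, T12 or T3, and was 0 against either age alone.

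Nucleotide, polyamine and one-carbon enzymes showed higher and lower members. Purine synthesis had 7 of 13 higher and none lower; Ppat, which commits precursors to the pathway, was between 5.26 and 6.63 log2 CPM (median 5.60) in FGFR1;MYCN tumors against 4.69, 4.32, 4.95 and 4.66 in T11, T12, T2 and T3 (log2 fold change 1.10 ± 0.25, adjusted p = 0.00391), and Prps1 (log2 fold change 0.76 ± 0.14, adjusted p = 5.63e-04) and Prps2 (log2 fold change 0.99 ± 0.21, adjusted p = 0.00222) also rose. From 4 to 8 purine genes were higher on leaving out 1 tumor, the fewest without T12 or T3. In pyrimidine synthesis Dctd (log2 fold change 1.66 ± 0.19, adjusted p = 1.81e-05), Uck2 (log2 fold change 1.30 ± 0.15, adjusted p = 1.45e-05) and Ctps (log2 fold change 0.92 ± 0.18, adjusted p = 0.00105) were higher, 3 of 14. Thymidine kinase, Tk1, was lower (log2 fold change -0.81 ± 0.27, adjusted p = 0.0346), a call lost without T2 or T3 (adjusted p 0.0527 to 0.149). Sms, which makes spermine, was between 6.97 and 8.78 log2 CPM (median 7.67) against 6.77, 6.57, 6.28 and 6.41 in T11, T12, T2 and T3 (log2 fold change 1.201 ± 0.26, adjusted p = 0.00233), and the spermidine enzyme genes Srm (log2 fold change 0.96 ± 0.17, adjusted p = 5.13e-04) and Amd1 (log2 fold change 0.76 ± 0.14, adjusted p = 6.97e-04) rose with it. Odc1, the first enzyme of polyamine synthesis and a much used MYC target, had a mean of 6.92 log2 CPM against 7.23 and did not pass (log2 fold change -0.28 ± 0.27, adjusted p = 0.483).

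In one-carbon metabolism the mitochondrial folate enzymes Aldh1l2 (log2 fold change 1.84 ± 0.25, adjusted p = 6.46e-05) and Mthfd2 (log2 fold change 1.62 ± 0.23, adjusted p = 9.55e-05) rose, and so did Psat1, a serine synthesis enzyme (log2 fold change 1.29 ± 0.31, adjusted p = 0.00535). Mthfd2 was between 6.04 and 7.43 log2 CPM (median 6.59) in FGFR1;MYCN tumors against 5.02, 4.77, 5.17 and 4.96 in T11, T12, T2 and T3, with no overlap. Phgdh, which precedes Psat1 in the same pathway, was between 3.48 and 6.07 log2 CPM (median 4.50) against 5.71, 5.80, 5.47 and 5.90 in T11, T12, T2 and T3 and lower in the fit (log2 fold change -1.04 ± 0.37, adjusted p = 0.046). That call was lost without any one of 12 of the 15 tumors (adjusted p 0.0509 to 0.103). In all 4 of 12 members were higher and 1 lower, with 0 to 4 lower on leaving out 1 tumor and 4 without mouse2149. Of 29 glycolysis and hypoxia genes, 10 were higher and 1 lower, with a median of 0.50. Pkm, pyruvate kinase (log2 fold change 1.14 ± 0.27, adjusted p = 0.00468), and Eno1, enolase (log2 fold change 1.10 ± 0.26, adjusted p = 0.00492), rose without overlap, and the hypoxia marker Car9 fell (log2 fold change -1.28 ± 0.33, adjusted p = 0.00898). Without T11 or T12 the count of higher genes was 6, and it was 5 against the 6-day and 2 against the 7-day tumors alone. The count of lower genes was 3 without mouse23 kidney and 2 without mouse15, mouse23 pelvis, mouse36 pelvis, T12 or T3.

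**Figure D3:**
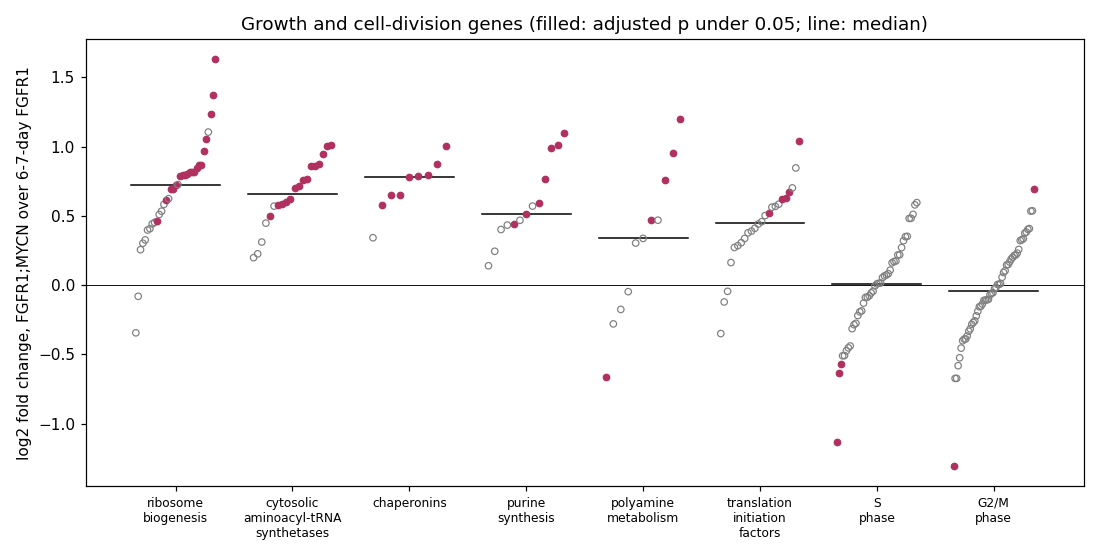
Log2 fold change of each tested gene in 8 lists of growth and cell-division genes, FGFR1;MYCN over 6-7-day FGFR1 tumors, with filled points past an adjusted p of 0.05 and a line at each median. Ribosome biogenesis, tRNA synthetase and chaperonin medians lie at 0.73, 0.66 and 0.78, whereas S phase and G2/M phase medians lie at 0.01 and -0.04.

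Few cell-division genes passed. Of 43 S phase genes none was higher and 3 were lower, and of 54 G2/M genes 1 was higher and 1 lower, against 13.4% and 16.8% of all genes. The mean level of the G2/M list was 4.42 to 5.96 log2 CPM in FGFR1;MYCN tumors and 5.15 to 5.42 in the 6-7-day tumors, so that the first group spread around the second. Mki67, the proliferation marker Ki-67, was between 6.41 and 8.60 log2 CPM (median 7.15) in FGFR1;MYCN tumors against 7.43, 7.66, 7.42 and 8.01 in T11, T12, T2 and T3 (log2 fold change -0.26 ± 0.34, adjusted p = 0.61). The 14-day tumors lay at 4.06 to 4.63 for the G2/M list and 5.82 to 6.96 for Mki67. Top2a (log2 fold change -0.45 ± 0.32, adjusted p = 0.321) and Ccnb1 (log2 fold change 0.53 ± 0.36, adjusted p = 0.298) did not pass. Leaving out 1 tumor gave 1 to 5 lower S phase genes, with moves of more than 1.5 times without mouse17, mouse23 kidney, mouse23 pelvis, T12 or T3, and 1 to 4 lower G2/M genes, with such moves without each of the 11 FGFR1;MYCN tumors.

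The cyclins, cyclin-dependent kinases and their inhibitors had 5 of 30 members higher and 8 lower, against 13.4% and 16.8% of all genes. Cdkn2a, which encodes p16INK4a and p19ARF, was between 0.83 and 3.31 log2 CPM (median 2.48) in FGFR1;MYCN tumors against -0.59, -0.37, 0.41 and -0.24 in T11, T12, T2 and T3. It was low in all tumors but did not overlap (log2 fold change 2.67 ± 0.41, adjusted p = 1.77e-04). Cdkn1a, encoding p21, was between 5.91 and 7.59 log2 CPM (median 6.61) against 5.33, 4.90, 5.72 and 5.01 in T11, T12, T2 and T3 (log2 fold change 1.42 ± 0.29, adjusted p = 0.00161), and Cdkn2b rose by 1.25 ± 0.33 (adjusted p = 0.00915). Other inhibitors fell, namely Cdkn1c (log2 fold change -1.86 ± 0.31, adjusted p = 3.59e-04) and Cdkn2c (log2 fold change -1.80 ± 0.28, adjusted p = 1.96e-04). The G1 kinase genes Cdk6 (log2 fold change -1.98 ± 0.35, adjusted p = 5.18e-04) and Cdk2 (log2 fold change -1.66 ± 0.20, adjusted p = 1.99e-05) and the cyclin genes Ccnd2 (log2 fold change -1.97 ± 0.33, adjusted p = 3.38e-04) and Ccnd3 (log2 fold change -1.60 ± 0.24, adjusted p = 1.62e-04) were lower in FGFR1;MYCN tumors. All 8 lower members, of 30 tested, lay below the 6-7-day tumors without overlap, against 9.48% of all genes. Ccnd1, the cyclin D1 gene, was between 8.44 and 10.32 log2 CPM (median 9.18) against 9.16, 9.03, 9.49 and 9.03 in T11, T12, T2 and T3 and did not pass (log2 fold change 0.12 ± 0.28, adjusted p = 0.783).

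Of 20 pro-apoptotic genes and caspases, 7 were lower and none higher, against 16.8% and 13.4% of all genes. Casp8 (chromosome 1, 58795374 to 58847503), the initiator caspase of death receptors, was between 1.28 and 4.13 log2 CPM (median 1.89) in FGFR1;MYCN tumors against 4.34, 4.08, 4.92 and 4.53 in T11, T12, T2 and T3. The tumor of mouse2149 gave the highest FGFR1;MYCN value and reached into the range of the 6-7-day tumors (log2 fold change -2.08 ± 0.41, adjusted p = 0.00132). Bmf (log2 fold change -1.10 ± 0.17, adjusted p = 1.63e-04) and Bak1 (log2 fold change -1.09 ± 0.12, adjusted p = 1.55e-05) were lower without overlap. Bik fell by 2.22 ± 0.66 (adjusted p = 0.0182), a call lost without T2 (adjusted p 0.0962). Bax (0.33 ± 0.31, adjusted p = 0.459), Bid (0.22 ± 0.19, adjusted p = 0.403) and Bcl2l11 (0.25 ± 0.19, adjusted p = 0.364) did not pass.

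Among 10 anti-apoptotic genes Bcl2 was between 6.003 and 7.13 log2 CPM (median 6.97) against 6.11, 6.25, 5.996 and 5.99 in T11, T12, T2 and T3 and rose (log2 fold change 0.83 ± 0.16, adjusted p = 0.00136), and Bcl2l2 rose without overlap (log2 fold change 0.63 ± 0.09, adjusted p = 1.31e-04). Birc3 fell (log2 fold change -1.41 ± 0.40, adjusted p = 0.0132), while Mcl1 (0.08 ± 0.17, adjusted p = 0.753) and Bcl2l1 (-0.01 ± 0.15, adjusted p = 0.965) did not pass. In all, 2 anti-apoptotic genes were higher and 1 lower, against 13.4% and 16.8% of all genes. Without mouse2149, 3 anti-apoptotic genes were lower, and without mouse17 or either tumor of mouse36, 2. Of 19 p53 pathway genes 5 were higher and 1 lower, against 13.4% and 16.8% of all genes. Eda2r, a receptor gene, was between 3.84 and 5.83 log2 CPM (median 4.45) against 2.35, 2.47, 2.25 and 2.46 in T11, T12, T2 and T3 (log2 fold change 2.17 ± 0.37, adjusted p = 3.96e-04). The p53 targets Aen (log2 fold change 1.35 ± 0.23, adjusted p = 4.05e-04), Zmat3 (log2 fold change 1.204 ± 0.23, adjusted p = 0.00115) and Mdm2 (log2 fold change 0.73 ± 0.14, adjusted p = 0.00123) rose as did Cdkn1a. Trp53 itself was lower by a small amount (log2 fold change -0.37 ± 0.12, adjusted p = 0.0329), which was lost without T2 (adjusted p 0.16); without mouse2149, 4 members were lower.

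**Figure D4:**
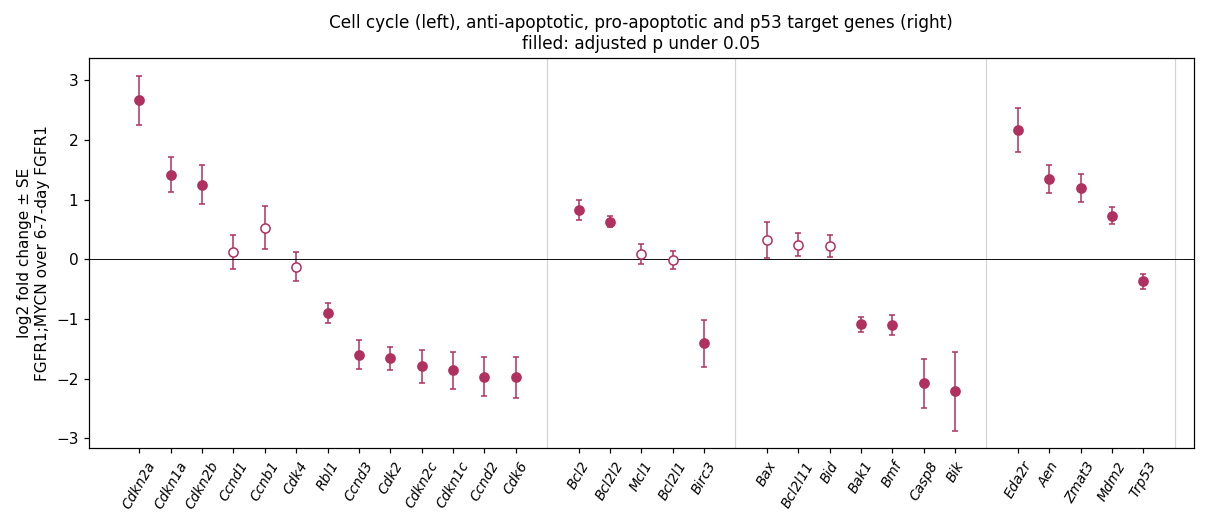
Log2 fold change ± SE of named cell cycle, anti-apoptotic, pro-apoptotic and p53 pathway genes, FGFR1;MYCN over 6-7-day FGFR1 tumors, filled where the adjusted p is under 0.05. The inhibitor genes Cdkn2a and Cdkn1a lie above 0 with Eda2r and Aen, and Cdk6, Ccnd2, Casp8 and Bik lie near -2.

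Of 21 genes of FGF ligands and receptors tested, of 25 listed, 3 were higher and 5 lower, and of 25 ERK feedback and target genes 4 were higher and 5 lower. These counts lie near the 13.4% higher and 16.8% lower of all genes. The 3 that rose, Fgf12 (log2 fold change 1.85 ± 0.20, adjusted p = 1.18e-05), Fgf13 (log2 fold change 0.87 ± 0.25, adjusted p = 0.0156) and Fgf14 (log2 fold change 0.997 ± 0.22, adjusted p = 0.00281), encode intracellular FGF homologous factors that act on sodium channels in neurons. Fgfrl1, a receptor without a kinase domain, fell (log2 fold change -2.62 ± 0.52, adjusted p = 0.00134), as did the secreted ligand gene Fgf7 (log2 fold change -1.75 ± 0.40, adjusted p = 0.0034). The call of Fgf13 was lost without T11, T12 or T3 (adjusted p 0.0521 to 0.0884), and 2 to 9 members were lower on leaving out 1 tumor, moving by more than 1.5 times without T3 or mouse2149. Among the ERK genes, Spry3 was between 3.09 and 4.71 log2 CPM (median 3.75) in FGFR1;MYCN tumors against 1.56, 1.86, 1.04 and 1.40 in T11, T12, T2 and T3, a rise without overlap (log2 fold change 2.37 ± 0.28, adjusted p = 2.14e-05). The feedback gene Spred2 rose (log2 fold change 0.58, adjusted p = 0.037), a call lost without any one of 13 tumors (adjusted p 0.0512 to 0.186). Il17rd of the same list fell (log2 fold change -0.71, adjusted p = 0.0329), but not without T12 or T3 (adjusted p 0.0728 to 0.0867). Dusp6 (-0.22 ± 0.22, adjusted p = 0.496), Spry2 (-0.21 ± 0.24, adjusted p = 0.553) and Spry4 (0.01 ± 0.13, adjusted p = 0.968), also feedback genes, did not pass. The immediate early gene Fos rose (log2 fold change 2.14 ± 0.70, adjusted p = 0.0296) but not without T11, T12 or T3 (adjusted p 0.0876 to 0.102), and 1 to 7 members of the list were higher on leaving out 1 tumor, moving by more than 1.5 times without any tumor other than mouse15, mouse18, mouse36 kidney and T2. Without T2, 3 were lower.

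Genes of the LIN28 axis, in which LIN28 proteins hold back the let-7 microRNAs, also split. Trim71, a let-7 target gene of stem cells, was between 2.001 and 3.56 log2 CPM (median 2.72) in FGFR1;MYCN tumors against 0.61, 0.93, 0.90 and 0.91 in T11, T12, T2 and T3 (log2 fold change 2.03 ± 0.30, adjusted p = 1.29e-04). Lin28b, which is amplified in part of human neuroblastomas, was between 3.45 and 5.49 log2 CPM (median 5.06) against 3.39, 3.81, 1.42 and 3.65 in T11, T12, T2 and T3 (log2 fold change 1.57 ± 0.46, adjusted p = 0.0158), lost without T11 (adjusted p 0.0511). Igf2bp2 was between -0.33 and 1.85 log2 CPM (median 1.13) against 3.92, 4.21, 4.21 and 3.83 in T11, T12, T2 and T3 and was lower in every FGFR1;MYCN tumor (log2 fold change -3.04 ± 0.33, adjusted p = 9.40e-06). Igf2bp1 (log2 fold change -1.38 ± 0.41, adjusted p = 0.0176) and Lin28a (log2 fold change -1.57 ± 0.44, adjusted p = 0.0131) were lower too, both at low levels. Igf2 (chromosome 7, 142650766 to 142666816), a fetal growth factor gene that is expressed from the paternal copy, showed the largest decrease of the genes named by size. It was between 0.35 and 6.66 log2 CPM (median 1.34) in FGFR1;MYCN tumors, the highest being mouse2149, against 9.89, 8.55, 12.06 and 7.98 in T11, T12, T2 and T3 (log2 fold change -7.01 ± 1.26, adjusted p = 6.28e-04). Liver markers moved in part with Igf2, as they were highest in mouse2149, T2 and T11. Of the 6-7-day tumors they were lowest in T12, at -0.09 log2 CPM, where Igf2 was 8.55. The part of liver tissue in the Igf2 difference was not tested. Its exons overlap those of Gm49394 and of the antisense gene Igf2os. Among 18 imprinted genes tested, of 20 listed, 5 were lower and 2 higher, against 16.8% and 13.4% of all genes. Mest was among the lower (log2 fold change -1.48 ± 0.18, adjusted p = 2.32e-05). The 2 higher were Peg10 (log2 fold change 2.60 ± 0.48, adjusted p = 7.56e-04) and Magel2 (log2 fold change 1.31 ± 0.28, adjusted p = 0.00216). Without mouse2149, 4 were higher.

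Antigen presentation and interferon-response genes were mostly lower. Of 16 antigen presentation genes, 11 were lower and none higher, with a median of -2.32, and of 22 interferon-response genes 15 were lower and none higher, with a median of -1.64. Psmb9, an immunoproteasome subunit gene, was between -0.84 and 1.65 log2 CPM (median 0.11) in FGFR1;MYCN tumors against 4.43, 3.10, 4.55 and 3.42 in T11, T12, T2 and T3 (log2 fold change -3.75 ± 0.39, adjusted p = 7.90e-06). Tap1, the peptide transporter gene beside it, whose exons overlap those of Psmb9, fell as well (log2 fold change -2.87 ± 0.30, adjusted p = 8.05e-06). Cd74 was between 1.22 and 4.68 log2 CPM (median 2.57) against 6.48, 6.91, 6.73 and 7.19 in T11, T12, T2 and T3 (log2 fold change -3.59 ± 0.49, adjusted p = 7.04e-05), and with H2-Ab1 (log2 fold change -3.46 ± 0.39, adjusted p = 1.45e-05) it belongs to the class II pathway of antigen-presenting cells. The class I genes B2m (-1.44 ± 0.56, adjusted p = 0.0652) and H2-K1 (-1.46 ± 0.71, adjusted p = 0.135) did not pass, but both were lower without mouse2149 (log2 fold change -2.10, adjusted p = 7.88e-06, and -2.41, adjusted p = 1.44e-05).

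The GTPase gene Gbp2 was between 1.12 and 2.38 log2 CPM (median 1.84) against 4.76, 3.56, 4.74 and 4.37 in T11, T12, T2 and T3 (log2 fold change -2.63 ± 0.24, adjusted p = 2.98e-06). Isg15 (log2 fold change -2.14 ± 0.28, adjusted p = 4.87e-05) and Irf1 (log2 fold change -1.95 ± 0.29, adjusted p = 1.55e-04) were also lower. Macrophage and lymphocyte markers moved with both lists. The 12 macrophage markers summed to 126 to 500 CPM in the FGFR1;MYCN tumors (median 198) and 504 to 1155 CPM in the 6-7-day tumors, with 10 lower, and the 9 lymphocyte markers summed to 3.25 to 30.1 CPM in the FGFR1;MYCN tumors (median 6.45) and 47.7 to 128 CPM in the 6-7-day tumors, with all 9 lower. Their part in the lower level of antigen presentation and interferon genes was not tested. On leaving out 1 tumor, 10 to 16 antigen presentation genes and 13 to 17 interferon genes were lower.

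Matrix genes were lower almost throughout. Of 20 elastic fibre and crosslinking genes 19 were lower, in the fit of all tumors and without any one tumor, with a median of -1.84. Eln, the elastin gene, was between 4.70 and 6.89 log2 CPM (median 5.92) in FGFR1;MYCN tumors against 9.57, 11.14, 10.10 and 11.59 in T11, T12, T2 and T3, a 31.1-fold decrease (log2 fold change -4.96 ± 0.38, adjusted p = 5.79e-07). Loxl1, a crosslinking enzyme gene, fell too (log2 fold change -2.59 ± 0.16, adjusted p = 1.60e-07). Of 18 collagen genes 15 were lower and 1 higher. Col1a1 was between 5.28 and 7.97 log2 CPM (median 7.11) against 9.82, 11.20, 10.07 and 10.58 in T11, T12, T2 and T3 (log2 fold change -3.56 ± 0.40, adjusted p = 1.44e-05), and Col3a1 fell by 3.37 ± 0.30 (adjusted p = 1.94e-06). Col8a1, the exception, was between 4.29 and 6.03 log2 CPM (median 5.45) against 2.98, 4.02, 3.90 and 3.79 in T11, T12, T2 and T3 and rose without overlap (log2 fold change 1.82 ± 0.29, adjusted p = 2.43e-04). Of 25 mesenchymal regulators and markers 16 were lower, Prrx1 (log2 fold change -2.55 ± 0.27, adjusted p = 8.80e-06) and Snai2 (log2 fold change -2.65 ± 0.35, adjusted p = 5.38e-05) among them, and S100a4 (log2 fold change 1.27 ± 0.31, adjusted p = 0.00549) and Twist1 (log2 fold change 1.38 ± 0.43, adjusted p = 0.0224) were higher, the last not without T11, T12 or T2 (adjusted p 0.0628 to 0.0862).

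Markers of fibroblasts, glia, vessels and blood fell with the matrix genes. Of 10 fibroblast markers 8 were lower, and the list summed to 920 to 2275 CPM in the FGFR1;MYCN tumors (median 1249) and 6998 to 13362 CPM in the 6-7-day tumors, ranges that did not meet. Of 12 endothelial markers 11 were lower, and the list summed to 102 to 402 CPM in the FGFR1;MYCN tumors (median 153) and 394 to 742 CPM in the 6-7-day tumors. Of 11 markers of Schwann cells and their precursors 9 were lower, and the list summed to 231 to 702 CPM in the FGFR1;MYCN tumors (median 397) and 1018 to 1694 CPM in the 6-7-day tumors. Sox10, which defines that lineage, was between 0.71 and 4.76 log2 CPM (median 3.54) in FGFR1;MYCN tumors against 6.55, 7.13, 6.08 and 6.40 in T11, T12, T2 and T3 (log2 fold change -2.83 ± 0.47, adjusted p = 3.41e-04), and Fabp7, a gene of immature glia, was between 3.70 and 5.45 log2 CPM (median 4.78) against 9.22, 8.21, 7.68 and 8.41 in T11, T12, T2 and T3 (log2 fold change -3.70 ± 0.30, adjusted p = 9.45e-07). Sox10 was thus detected in every tumor. All 9 erythroid markers tested, of 10 listed, were lower, and the list summed to 211 to 1278 CPM in the FGFR1;MYCN tumors (median 513) and 2055 to 6605 CPM in the 6-7-day tumors. Adipocyte markers were lower in 8 of 10 cases, with Ucp1, the brown fat uncoupling protein gene, at 7.01, 5.49, 6.57 and 8.61 in T11, T12, T2 and T3 and between -3.07 and 2.86 log2 CPM (median 0.86) in FGFR1;MYCN tumors. The part of these cells in the lower level of matrix, Notch and receptor genes was not tested.

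**Figure D5:**
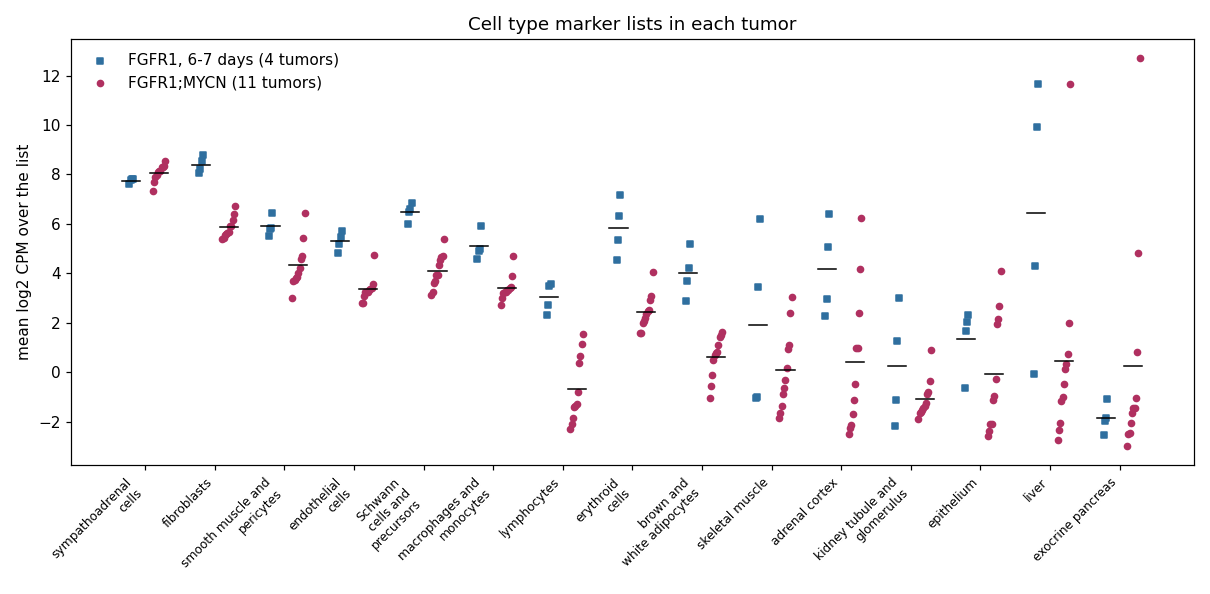
Mean level in log2 CPM of the marker list of each cell type or tissue, 1 point per tumor, in the 11 FGFR1;MYCN and 4 6-7-day FGFR1 tumors. Fibroblast, endothelial, glial, lymphocyte and erythroid markers are lower in FGFR1;MYCN tumors, sympathoadrenal markers are high in all, and pancreas, liver and skeletal muscle markers are high in single tumors.

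Of 17 Notch pathway genes 11 were lower and 1 higher, with a median of -1.28. Notch1 was between 2.04 and 5.62 log2 CPM (median 4.15) in FGFR1;MYCN tumors against 5.76, 6.54, 5.80 and 6.36 in T11, T12, T2 and T3 (log2 fold change -1.84 ± 0.38, adjusted p = 0.00189), and Notch2 (log2 fold change -2.25 ± 0.37, adjusted p = 3.36e-04), Notch3 (log2 fold change -1.82 ± 0.37, adjusted p = 0.00144) and the modifier gene Lfng (log2 fold change -2.37 ± 0.48, adjusted p = 0.00147) were lower without overlap. The target gene Hes1 fell (log2 fold change -1.22 ± 0.35, adjusted p = 0.0138) but not without T2 (adjusted p 0.0765), and Hey1 had a log2 fold change of -0.09 ± 0.16 (adjusted p = 0.72). The ligand gene Jag2 rose (log2 fold change 0.67 ± 0.18, adjusted p = 0.00996) but not without T11 (adjusted p 0.0567). Of 21 chromatin and DNA methylation regulators 2 were higher and 1 lower, against 13.4% and 16.8% of all genes. Dnmt3b was the lower one (log2 fold change -1.44 ± 0.28, adjusted p = 0.00119). The 2 higher were Suz12 (log2 fold change 0.53 ± 0.14, adjusted p = 0.011) and Kdm1a (log2 fold change 0.37 ± 0.13, adjusted p = 0.0481). From 0 to 4 were higher on leaving out 1 tumor, moving by more than 1.5 times whichever tumor was left out. The call of Suz12 was lost without T11, T12 or T3 (adjusted p 0.0572 to 0.0774) and that of Kdm1a without any one of 13 of the 15 tumors (adjusted p 0.0697 to 0.273).

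Markers of the surrounding organs moved with single tumors. Skeletal muscle markers were lower in 5 of 9 cases, but in 1 without T2, where Acta1 was 9.05 log2 CPM against -0.14 in the lowest 6-7-day tumor. Kidney markers were lower in 3 of 7 cases, and in none without T3. Liver markers were lower in 1 of 10 cases, Afp, and in 10 without mouse2149. Adrenal cortex markers were lower in 1 of 11 cases, Nr0b1 (log2 fold change -4.19 ± 0.79, adjusted p = 9.15e-04), in 2 without mouse2149 and in 6 without mouse36 kidney. Pnlip, 1 of 11 pancreas markers tested, passed as higher (log2 fold change 13.97 ± 4.99, adjusted p = 0.0451), with mouse2149 the highest at 13.22 log2 CPM; the log2 fold change was 6.01 without it, and the call was lost without mouse2138 or any one 6-7-day tumor (adjusted p 0.0519 to 0.111). None of 8 epithelial markers passed, and 3 of 8 smooth muscle and pericyte markers were lower, 6 without mouse36 pelvis.

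Because the FGFR1;MYCN mice were also older, the named genes were set beside the 14-day FGFR1 tumors. Between 14-day and 6-7-day FGFR1 tumors 196 of 19411 genes (1.01%) passed in the fit of all 19 tumors, and 0 in edgeR's fit of those 8 tumors alone, where 3116 had an unadjusted p under 0.05. Of the 217 genes named by rule 3 passed, and of 29 further list members named here none did. Sox11 was 3.89 to 5.16 log2 CPM at 14 days, lower than at 6-7 days (log2 fold change -1.66 ± 0.32, adjusted p = 0.0175), and Trim71 was -1.02 to 0.02 (log2 fold change -1.53 ± 0.34, adjusted p = 0.0381). Both were higher in the FGFR1;MYCN tumors. Igf2bp3 was lower at 14 days as well (-1.82 ± 0.39, adjusted p = 0.0345). Vip was 3.35 to 6.42 log2 CPM at 14 days (1.42 ± 0.66, adjusted p = 0.297), Tac1 -2.54 to -0.97 (-1.13 ± 0.92, adjusted p = 0.612), Gnl3 5.17 to 5.39 (0.01 ± 0.16, adjusted p = 0.993), Eln 8.77 to 11.53 (-0.28 ± 0.56, adjusted p = 0.871) and Igf2 6.81 to 9.18 (-2.54 ± 1.51, adjusted p = 0.444). Both comparisons rest on the same 4 tumors of 6-7 days, and no FGFR1 tumor of the age of the FGFR1;MYCN mice was among those used.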

How the data were processed

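RNA of fresh-frozen mouse tumors was sequenced by the authors as stranded paired-end libraries. The authors quantified the reads with kallisto 0.44.0 on mouse (GRCm38) and human (GRCh38) transcripts together and summed them to genes with tximport. The deposited table holds estimated counts, given as whole numbers, and a second deposited table holds log2-scale variance-stabilized values made by the authors with DESeq2 1.32.0. No strand option is listed, so the reads of overlapping genes cannot be told apart: 53 of 216 rule-named genes with 1 position share exons with a gene on the opposite strand and 16 with one on the same strand. All columns were used.

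Here a gene was kept where 4 or more of the 15 tumors held 10 or more counts, and tested with edgeR 4.0.16 (R 4.3.3; TMM factors, quasi-likelihood test, Benjamini-Hochberg over all genes tested, threshold 0.05). Levels are log2 CPM with a prior count of 2. Mouse Mycn and Fgfr1 were tested by a two-sided exact permutation of tumor labels. DESeq2 1.42.0 and limma 3.58.1 served as alternatives, with other factors and filters, sums per mouse, each age alone and each tumor left out. The analysis was tested on simulated data. No pair of libraries agreed within sampling noise. Depth was 40010738 to 75882643 counts per tumor.

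The comparison, its members and the gene lists were chosen with earlier results of these data known. Genes were named by rule: the 10 largest rises and 10 largest falls without overlap between groups and with a mean above 3 log2 CPM, up to 4 genes past the threshold in each direction of each list, and genes that the study uses to describe its models. A further 29 list members were named after their values were seen. Positions are from the GENCODE annotation of GRCm38. Some members of the lists are counted in them but not reported by name here.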

Additional observations from a re-analysis of the deposited data

Results flagged for a closer look

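In 17 of 296 gene or list values examined over the 4 6-7-day FGFR1 tumors, 1 tumor lay far from the other 3, with a gap to the nearest, as a share of the whole range, above Dixon's critical value for 4 samples. Chance would flag about 1 in 20 independent groups. The values examined come from the same 4 tumors, mostly for genes named for their differences, so the number cannot be weighed against that share. T2 also stood apart over all genes, with a mean absolute deviation of 0.772 on the log2 scale. Groups of 11 tumors were not examined this way. Of the 17, T2 was the far tumor for 11: Srm (share of the range 0.876), Uck2 (0.938), Mthfd1l (0.918), Eif3b (0.895), Fgf10 (0.869), Epha2 (0.963), Cdkn2b (0.869), Dnmt3b (0.883), Isl1 (0.972), Spry4 (0.876) and Csf1r (0.929). Epha2, an ephrin receptor gene, was 4.35 log2 CPM in T2 and 2.84 to 2.90 in the others, and Csf1r, the macrophage growth factor receptor gene, was 7.33 against 5.90 to 6.01. Isl1, a sympathetic transcription factor gene, was 6.97 in T2 and 7.58 to 7.60 in the others. T3 was far for Nop56 (0.872), Top2a (0.832) and the mean level of the secretory granule list (0.855), T12 for Prps1 (0.853) and Cct8 (0.888), and T11 for Trim71 (0.909).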

How the results depend on the processing

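Fewer 6-7-day tumors gave fewer calls: 2705 genes against the 6-day tumors alone (731 higher, 1974 lower) and 3479 against the 7-day tumors alone (889 higher). With the pelvic tumor of each mouse that gave a pair, 1616 genes were higher. A log2 fold change above 1 in size left 3351 genes, 824 of them higher. Leaving out 1 tumor gave 4254 to 7732 genes, 1431 to 3392 higher and 2596 to 4401 lower. Among the fits that left out 1 tumor, the share of calls that were higher fell most without T11 (1472 of 4432), T12 (1557 of 4489) or T3 (1431 of 4254). The median log2 fold change of all genes was 0.0758 with mouse36 pelvis as TMM's reference library and 0.00433 to 0.0156 in the fits where leaving out a tumor made mouse2138 the reference, those 3 among them. DESeq2 called 6965 genes (3285 higher, 3680 lower), the fit on counts summed per mouse called 5946, and the fit of all 19 tumors 5479 (1985 higher, 3494 lower). Without mouse2149, mouse23 pelvis and T2, chosen after the data were seen, 7955 genes passed. The 14-day against 6-7-day contrast called 196 genes in the fit of 19 tumors and 0 in that of 8.

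The Mycn difference was 0.89 to 1.08 on leaving out 1 tumor. The Fgfr1 difference was -0.375 to -0.218 on leaving out 1 tumor, 0.0139 on the variance-stabilized values and -0.302 on means per mouse. It passed on means per mouse (exact permutation p = 0.0404), without mouse23 kidney (-0.364, p = 0.011) and without mouse2138 (-0.334, p = 0.048). Of 203 genes named by rule and past the threshold, 112 stayed past it in the same direction in all 31 alternatives. Of 16 further list members named as past it, 10 did. Among 6686 pairs of rule-named gene and alternative, 395 lost the call, 8 gained it and 22 changed sign, and among 895 pairs for the 29 further members 19, 21 and 17. The 17 were those of Npy (-0.204 with pelvic tumors of the pairs) and Spry4 (-0.00519 with 10 counts in all 15 tumors, -0.00391 with the mouse as a random effect, -0.0578 with pelvic tumors of the pairs, -0.0565 in the fit of all 19 tumors, -0.127 against 7-day tumors alone, -0.106 to 0.062 on leaving out 1 tumor), neither of which passed. The 22 were those of Myh1 (0.224 against 6-day tumors alone, 0.776 without T2 with a lowest of -4.79 on leaving out another tumor, 1.02 without the 3 libraries that stood apart) and of Fgfr1 and 5 genes that did not pass: Ccnd1 (-0.0438 against 7-day tumors alone, -0.0107 without mouse23 pelvis, -0.00407 without T12, -0.00509 without T3, up to 0.234 without T2), Pcna (-0.0427 with adrenal tumors of the pairs, -0.00652 without mouse23 pelvis, up to 0.305 without mouse2149, -0.0232 without the 3 libraries), Bcl2l1 (0.0038 with RLE factors, 0.00405 in DESeq2, 0.0456 on variance-stabilized values, 0.0593 against 6-day tumors alone, 0.133 without T2 and -0.153 without T12, 0.0818 without the 3 libraries), Mcl1 (-0.14 against 7-day tumors alone, -0.00592 without mouse23 kidney, -0.0482 without T11, -0.0365 without T12, up to 0.172 without T2) and Bid (-0.0835 against 7-day tumors alone). The cause of these moves was not tested. No paired analysis was possible because the groups compared share no mice, and their replicate numbers were given only in accession order.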
